A study of Mus musculus with 677 samples.

Results

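Early enterocyte progenitors are the cells of the intestinal epithelium named as the first step from the dividing crypt cell towards the absorptive cell. They were taken as all cells to which the authors' table gives the name Enterocyte.prog.early, which came to 20.97% of 677 cells and 1 of 9 named cell types. They were 78 cells from Atg16l2-/- mice (KO, 42 cells with the code M1 and 36 with M2) and 64 cells from wild-type mice (WT, 31 with M1 and 33 with M2). All mice were C57BL/6, and the study examined what an autophagy gene linked to disease does in this tissue. M1 and M2 were read as 2 animals of each genotype, each processed in runs 1 and 2. That reading is not stated by the labels, and if the codes mean something else the spread between them may be technical. Age, sex, gut segment and how the knockout was made are not given in the sources used here. The neighbouring stages were the transit-amplifying cells (TA, 90 KO and 85 WT cells) and the late enterocyte progenitors (Enterocyte.prog.late, 32 KO and 43 WT cells).

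Stem cells at the base of the intestinal crypt give rise to TA cells, which divide while they move up the crypt. Daughters that take the absorptive path leave the cell cycle and become enterocytes, with a brush border of microvilli that carries digestive enzymes and transporters, and with machinery to take up dietary fat and pack it into chylomicrons. Atg16l2 is a relative of Atg16l1, a scaffold of the complex that attaches LC3 to lipids during autophagy.

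Expression was measured by SMART-Seq2, a full-length single-cell RNA-seq method, and values are TPM, transcript abundances corrected for length, which sum to a fixed total in each cell. The level of an animal is the mean TPM over its cells, and differences are on the log2(mean TPM + 1) scale, which understates the change of low genes. A mean over cells cannot tell fewer cells with a transcript from less of it in each cell. The table keeps no sequencing depth, and each library is 1 cell, so there are no barcodes to compare between libraries. The early progenitors had a median of 6713 genes above 0 TPM (range 3979 to 9994), against 6429 in TA cells and 6079 in late progenitors. How the authors named the cells is not given in the sources used here. Such names come from the expression of the cells themselves, so differences between types are given as descriptions with no test.

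One set of early progenitors stood apart. The ribosomal RNA gene Rn45s took on average 4.93% and 19.4% of TPM in run 1 cells of KO M1 and KO M2, against 6.88% and 4.51% in those of WT M1 and WT M2. In run 2 the 4 means were close, at 15.9% and 18.9% in KO and 17.98% and 18.8% in WT. The 16 run 1 cells of KO M2 thus had Rn45s at the level of run 2. Some results are given with and without them. For the other results, how far they rest on these cells is not reported here. Summed levels of 12 Paneth cell markers were 6124 and 222.3 TPM in KO M1 and KO M2, against 759 and 155.9 TPM in WT M1 and WT M2, with a median cell at 77.7 TPM. Only 3 cells held over 1% of their TPM in these markers, and the highest held 238405 TPM. The summed lists of goblet, enteroendocrine, tuft, T, B and plasma, myeloid and stromal markers did not exceed 305.01 TPM in any animal. Gcg, Sst, Cd3g, Csf1r, C1qa and Pdgfra were at 0 in every early progenitor, but other members were not. Those at 0 were 5 of 17 enteroendocrine, 1 of 10 T cell, 6 of 11 myeloid and 2 of 14 stromal markers. The enteroendocrine gene Chga was above 0 in 16.9% of early progenitors and the goblet gene Muc2 in 20.4%.

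The 4 markers of the name were present together in these cells. Mki67, a nuclear protein of cycling cells, was at 56.98 and 41.9 TPM in KO animals and 48.4 and 39.1 TPM in WT animals. Averaged over the 4 animals it was 41.01 TPM in TA cells, 46.6 ± 7.95 TPM in early progenitors and 5.36 TPM in late progenitors (SD, n = 4). Cdk1, the kinase that drives entry into mitosis, was at 194.02 and 88.8 TPM in KO animals and 134.8 and 154.4 TPM in WT animals, and did not exceed 9.86 TPM in late progenitors of any animal. Mki67 thus stood near its TA level, and both cell-cycle markers stood far above their late level. On a scale with TA at 0 and late at 1, Cdk1 averaged −0.07 on log2 values and −0.34 on linear TPM, so its mean position was on the side of TA away from late.

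Rbp2, which carries retinol inside the enterocyte, averaged 23.4 TPM in TA cells, 158.9 TPM in early progenitors and 790 TPM in late progenitors. Fabp1, a fatty-acid carrier of the absorptive cell, averaged 49.4, 214.2 and 1006 TPM in the same order. Both absorptive markers were therefore intermediate. Mki67 and Rbp2 were above 0 in the same cell in 61 TA cells (34.9%), in 72.5% of early progenitors (exact 95% binomial interval 64.4% to 79.7%) and in 32 of 75 late progenitors (42.7%). Rbp2 alone was above 0 in 74.6% of early progenitors and in 45.7% of goblet cells, with medians of 6713 and 5816.5 genes above 0. A value above 0 was thus not particular to absorptive cells. Whether part of such shares is background was not tested. All 4 markers were above 0 together in 66 early progenitors (46.5%), 30 TA cells and 8 late progenitors. Such intervals hold counting error and no other source of error.

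The plot of levels by stage shows how genes of different roles pass through the early progenitor.

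**Figure D1:**
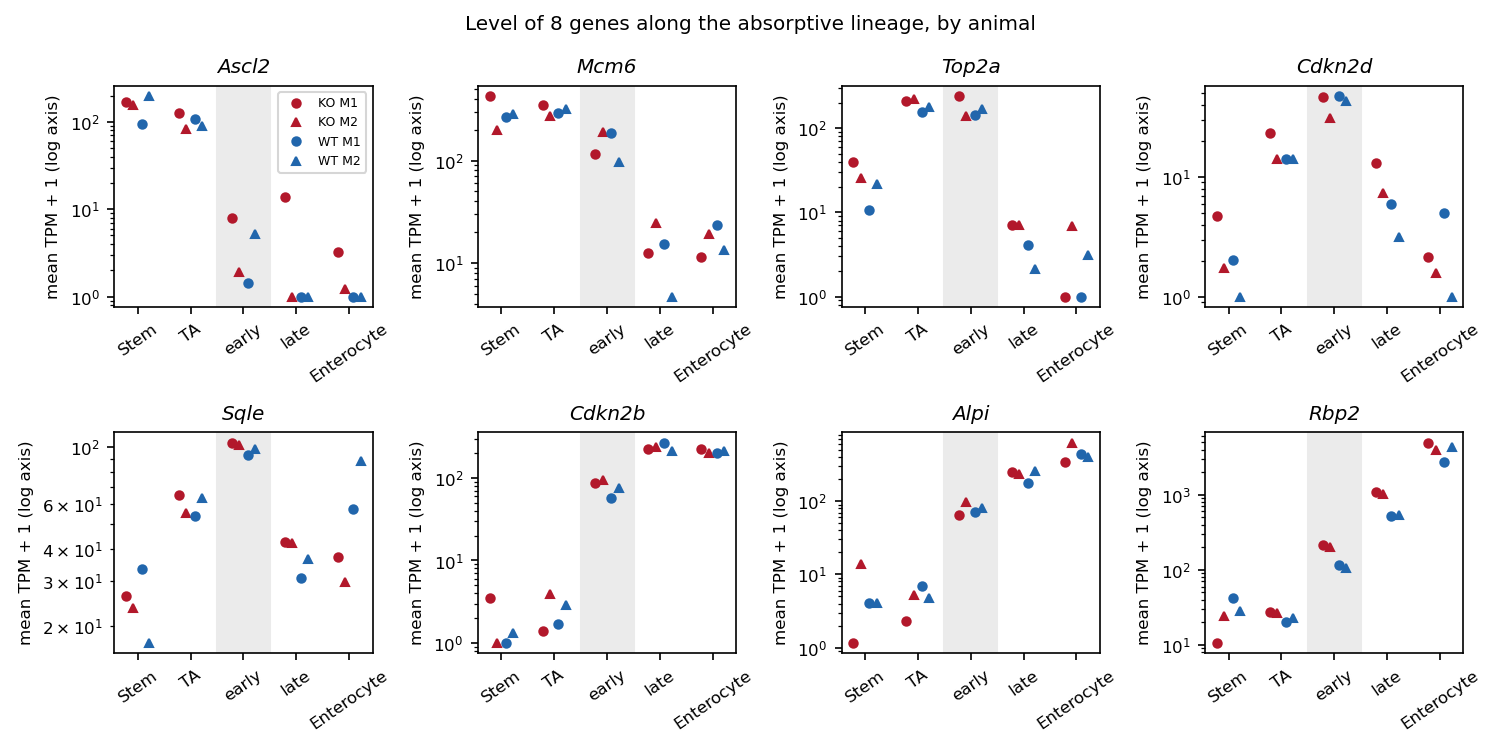
Mean TPM + 1 (log axis) of 8 genes in stem cells, TA cells, early progenitors, late progenitors and enterocytes, with 1 point for each animal and KO drawn left of WT. Ascl2 is far lower in early progenitors than in TA cells, Top2a stays at its TA level, Cdkn2d and Sqle are higher in early progenitors than in TA cells and late progenitors, and Cdkn2b, Alpi and Rbp2 are higher in them than in TA cells.

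Early progenitors exceeded TA cells by at least 1 log2 unit in each of the 4 animals at 130 of 6608 kept genes (1.97%) and were below them by as much at 60 genes (0.908%). Kept genes had a mean of at least 10 TPM and were above 0 in at least 10% of cells of the 3 types. The first gene by the smallest of the 4 differences was Cdkn2b, which encodes p15, an inhibitor of the cyclin D kinases. It was at 86.97 and 93.96 TPM in KO early progenitors and 56.3 and 73.5 TPM in WT early progenitors. In TA cells it was at 0.391 and 2.87 TPM in KO animals and 0.692 and 1.92 TPM in WT animals. The early level was thus higher than the TA level in all 4 animals, by 5.09 ± 0.63 log2 units (SD, n = 4), and 1.59 ± 0.43 log2 units below the late level.

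Cdkn2b was above 0 in 8 TA cells (4.57%), 72.5% of early progenitors and all 75 late progenitors. It was read in the same cell as Top2a, the topoisomerase that cycling cells need to separate their chromosomes, in 88 early progenitors (61.97%, exact 95% interval 53.5% to 69.98%), against 8 TA cells (4.57%) and 18 of 75 late progenitors. In goblet cells the share with both was 20 of 70 (28.6%). Of the 3 stages, early progenitors thus had the highest share of cells with both Cdkn2b and Top2a. Cdkn2b was named for its difference from TA and Top2a for its difference from late, so this order follows largely from the choice of genes. Among other inhibitors, Cdkn1b was above 0 in 62.9% of TA cells and 62.7% of early progenitors, and Cdkn2c in 32% and 35.2%. Cdkn1a was above 0 in 32.6% and 64.1%, and Cdkn2d in 26.9% and 47.2%. Their shares together with Top2a are not reported here. The promoter of Cdkn2b, the 250 bases before its start on the minus strand (chr4:89311033-89311282), is shown because the gene led the list. These and the sequences that follow are from RefSeq on GRCm38.p6. Capitals mark the cell cycle homology region, searched as TTTGAA on both strands.
Cdkn2b: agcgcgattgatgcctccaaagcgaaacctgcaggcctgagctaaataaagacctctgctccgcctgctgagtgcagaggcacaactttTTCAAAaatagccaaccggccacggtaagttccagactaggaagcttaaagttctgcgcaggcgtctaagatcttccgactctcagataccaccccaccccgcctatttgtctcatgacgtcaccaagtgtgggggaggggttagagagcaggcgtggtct

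The genes next in that order were Fam3b, Alpi, Apol10a, Enpep, St3gal4, Clec2h and Sis, of which Alpi, Enpep and Sis are hydrolases of the brush border. Alpi, intestinal alkaline phosphatase, was at 63.7 and 95.2 TPM in KO early progenitors and 71.03 and 78.9 TPM in WT early progenitors, and at no more than 5.90 TPM in TA cells of any animal. Sis, the sucrase-isomaltase that splits dietary sugars, was at 50.3 and 52.8 TPM in KO and 48.4 and 38.3 TPM in WT early progenitors, with no more than 5.53 TPM in TA cells and at least 138.1 TPM in late progenitors. Enpep, a membrane aminopeptidase, was at 117.1 and 96.9 TPM in KO and 72.9 and 70.1 TPM in WT early progenitors, with at most 8.97 TPM in TA cells. None of these 3 hydrolases had overlapping ranges in early progenitors and TA cells, and they were named for large differences from TA.

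Of 16 listed brush border hydrolases, 11 were kept, 5 were at least 1 log2 unit above TA in every animal and 6 as far below late. Over all kept genes, 1.97% passed above TA and 0.938% below late, the shares to set beside each list here. The median gene was 1.81 log2 units above TA and −1.402 units from late, whereas the medians over all 6608 kept genes were 0.02 and 0.12. Among 19 genes of lipid uptake and chylomicrons, 17 were kept, 5 passed above TA and 5 below late. Mttp, which loads fat onto apolipoprotein B, averaged 39.8 TPM in TA cells, 167.4 ± 25.6 TPM in early progenitors and 352.99 TPM in late progenitors (SD, n = 4). Mogat2, which rebuilds dietary fat inside the cell, averaged 28.1, 108 and 305.1 TPM in that order. Of 10 kept nutrient transporters (16 listed), 2 passed above TA, and Slc7a9, part of the carrier for cystine and basic amino acids, was 2.38 ± 0.38 log2 units above TA.

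The structural genes differed among themselves. Krt8 averaged 1780 TPM in TA cells, 3531 ± 413 TPM in early progenitors and 4971 TPM in late progenitors (SD, n = 4), and Krt19 averaged 1436, 3061 and 4408 TPM. Both encode keratins of simple epithelia. Krt18, the usual partner of Krt8, went the other way and was 0.74 ± 0.10 log2 units below TA, at 352.7 TPM on average. Of 15 kept genes of microvilli and keratins (17 listed), 3 passed above TA and 3 below late, beside 1.97% and 0.938% of all kept genes.

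Transcription factors of the absorptive lineage were judged by the same rule. None of 19 kept factors (23 listed) passed in either direction against TA, near the 1.97% above and 0.908% below of all kept genes. Against late progenitors, 1 factor passed below, beside 0.938% of all kept genes. Hnf4g, a nuclear receptor of enterocyte genes, was at 75.7 and 68.9 TPM in KO and 44.6 and 58.4 TPM in WT early progenitors against a TA mean of 25.1 TPM (1.29 ± 0.34 log2 units). Vdr, the vitamin D receptor, was 0.78 ± 0.08 log2 units below TA. Of 7 kept defence lectins and related genes (10 listed), 4 passed above TA, beside 1.97% of all kept genes. Reg3g, a lectin that binds bacterial walls, was at 663, 3278 ± 1999 and 6872 TPM from TA to late (SD, n = 4). Early progenitors of WT M1 had the most Reg3g, at 6119 TPM, and those of WT M2 the least, at 1431 TPM.

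Crypt genes were lower in early progenitors. Ascl2, the transcription factor of stem cell identity, was at 6.92 and 0.925 TPM in KO early progenitors and 0.433 and 4.21 TPM in WT early progenitors, against 124.97 and 80.8 TPM in KO and 108 and 89.1 TPM in WT TA cells. Olfm4, a secreted crypt glycoprotein, was at 520 and 297.7 TPM in KO and 300.5 and 549 TPM in WT early progenitors, with at least 7337 TPM in TA cells of every animal. Lgr5, the receptor for R-spondins that marks the stem cell, was between 1.07 and 2.26 TPM in early progenitors and between 34.1 and 40.7 TPM in TA cells. The ranges were far apart for all 3 genes, which were among those with the largest differences from TA. Of 19 listed crypt genes, 15 were kept and 14 were at least 1 log2 unit below TA in every animal, with a median of 1.83 units below. The share of all kept genes that passed below TA was 0.908%.

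In the cell cycle, the means over the 4 animals of replication genes and of most mitosis genes lay on different sides of the TA level. Mcm6, a subunit of the helicase that opens replication origins, was at 114.02 and 187.9 TPM in KO and 185.7 and 96.3 TPM in WT early progenitors, against 349.5 and 273.9 TPM in KO and 288 and 320.9 TPM in WT TA cells. Pcna, the sliding clamp of DNA polymerase, averaged 270.7 ± 26.3 TPM in early progenitors and 515 TPM in TA cells (SD, n = 4). All 24 kept replication genes (25 listed) had a mean below that of TA, with a median of −0.91 log2 units, though none of them passed the rule of 1 log2 unit in every animal. That rule called 0.908% of all kept genes below TA. Of all 6608 kept genes, 3427 had a mean above TA. The order of the 2 stages was the same for all 24 genes in run 1, in run 2, without the run 1 cells of KO M2 and after rescaling without Rn45s.

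Most mitosis genes stood above the TA level. Cdc20, the activator of the complex that triggers anaphase, was at 411 and 281.2 TPM in KO and 288 and 343.998 TPM in WT early progenitors, against 206.96 and 221.97 TPM in KO and 165.3 and 192.97 TPM in WT TA cells, and at no more than 32.8 TPM in late progenitors. Ube2c, a ubiquitin enzyme of the same complex, was at 1201 and 565 TPM in KO and 677 and 1075 TPM in WT early progenitors, against a TA mean of 594 TPM, so the animals overlapped with TA. Of 29 kept mitosis genes (30 listed), 25 had a mean above TA, with a median of 0.34 log2 units, and none passed the rule of 1 log2 unit above TA. That rule called 1.97% of all kept genes above TA, and 3427 of all 6608 kept genes had a mean above TA. The number with a mean above TA was 26 in each run alone and 27 without the run 1 cells of KO M2.

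More genes set early progenitors apart from late progenitors than from TA cells. Early progenitors were at least 1 log2 unit above late progenitors in every animal at 300 of 6608 genes (4.54%) and below them at 62 genes (0.938%). The genes that led the first list belong to mitosis and chromosome handling, among them Ccnf, Aurkb, Kif2c, Top2a, Prc1 and Ttk. Ccnf, which encodes cyclin F, was at 90.5 and 72.2 TPM in KO and 62.2 and 80.9 TPM in WT early progenitors and was listed at 0 in late progenitors of all 4 animals. Top2a was at 240.7 and 137.8 TPM in KO and 142.97 and 168.6 TPM in WT early progenitors, and at no more than 6.12 TPM in late progenitors. Of the kept lists, 28 of 29 mitosis genes and 22 of 24 replication genes passed above late, with medians of 3.68 and 3.24 log2 units.

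Growth genes were lower than in TA cells. All 15 genes of growth and ribosome biogenesis had means below TA and above late, with medians of −0.58 and 0.90 log2 units. Over all 6608 kept genes, 3427 had means above TA and 3950 above late, the counts to set beside each list here. Myc, the growth regulator downstream of Wnt signals, averaged 45.8 TPM in early progenitors and 113.2 TPM in TA cells. All 50 cytosolic ribosomal protein genes were below TA and 48 were above late, with medians of −0.28 and 0.16 units. These genes have near-identical pseudogenes among which reads can be split, so single values are uncertain. The 42 respiratory chain genes all had means above TA, with a median of 0.30 units, and 4 of them were above late. These counts against TA were the same after rescaling without Rn45s, while in run 1 alone 1 growth gene, and in run 2 alone 1 ribosomal gene, was above TA.

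Cdkn1a, which encodes the cell-cycle inhibitor p21, was at 33.8 and 33.3 TPM in KO and 38.999 and 41.4 TPM in WT early progenitors, against 10.2 TPM on average in TA cells and 70.2 TPM in late progenitors. It was the only one of 10 kept p53 targets and apoptosis genes (18 listed) that passed above TA, beside 1.97% of all kept genes.

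Few genes were highest in the early progenitor itself. By the rule of at least 0.5 log2 units above both neighbours in every animal, 4 of 6608 genes were called (0.0605%), among them Cdkn2d, Zfp54 and Sqle, and Acot1 was below both (1 gene, 0.0151%). Cdkn2d, which encodes p19, another inhibitor of the cyclin D kinases, was at 45.4 and 29.98 TPM in KO and 46.5 and 41.9 TPM in WT early progenitors. It was between 13.02 and 22.1 TPM in TA cells and between 2.13 and 11.99 TPM in late progenitors, so the 3 stages did not overlap. The differences were 1.37 ± 0.36 log2 units above TA and 2.68 ± 0.89 above late. Cdkn2d was above 0 in 47.2% of early progenitors, 26.9% of TA cells and 9.33% of late progenitors. The call depends on which cells are averaged, since without the run 1 cells of KO M2 Cdkn2d and Sqle were no longer among the 5 genes called. Leaving KO M2 out altogether gave 26 genes, among them Cdkn2d, Sqle and the mitosis genes Cdc20, Ccnb1, Plk1 and Aurka. A rule over fewer animals can only keep or raise the number, which was 5 or 6 with any other animal left out.

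Zfp54, a zinc-finger gene, was at 22.7 and 6.03 TPM in KO and 15.9 and 25.4 TPM in WT early progenitors, and its animals overlapped with TA, where Zfp54 reached 14.5 TPM in WT M2. Acot1, a thioesterase that frees fatty acids from coenzyme A, was at 8.68 and 8.88 TPM in KO and 1.80 and 10.8 TPM in WT early progenitors, against at least 24.5 TPM in TA cells and between 6.30 and 27.9 TPM in late progenitors, so the early and late ranges overlapped although each animal was lower in its early cells.

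Sqle, the squalene epoxidase of cholesterol synthesis, was at 103.5 and 100.8 TPM in KO and 92.03 and 97.4 TPM in WT early progenitors. It was between 52.6 and 63.9 TPM in TA cells and between 29.9 and 41.5 TPM in late progenitors. Of the 3 stages, the early progenitor had the highest level of Sqle in every animal, as the rule that named it requires.

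The other genes of cholesterol synthesis lay on the same side. All 18 listed genes were kept and had means above TA, and 16 also had means above late, with medians of 0.71 and 0.39 log2 units, against 0.02 and 0.12 over all kept genes. Over all 6608 kept genes, 3427 had means above TA and 3950 above late. Of the 18, 1 passed the rule of 1 log2 unit above TA and 1 above late, beside 1.97% and 4.54% of all kept genes. Hmgcs1, which makes HMG-CoA, was at 192.8 and 158.8 TPM in KO and 127.8 and 173.97 TPM in WT early progenitors, with means of 77.02 TPM in TA cells and 104.6 TPM in late progenitors. Insig1, a sterol-regulated anchor of the pathway's activator, averaged 57.8, 105.96 ± 7.61 and 52.1 TPM from TA to late (SD, n = 4). Cyp51 and Mvd were the 2 genes not above late, at −0.00 and −0.12 units. The count of 16 was 17 in run 1 and in the rescaling without Rn45s, and 14 without the run 1 cells of KO M2.

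**Figure D2:**
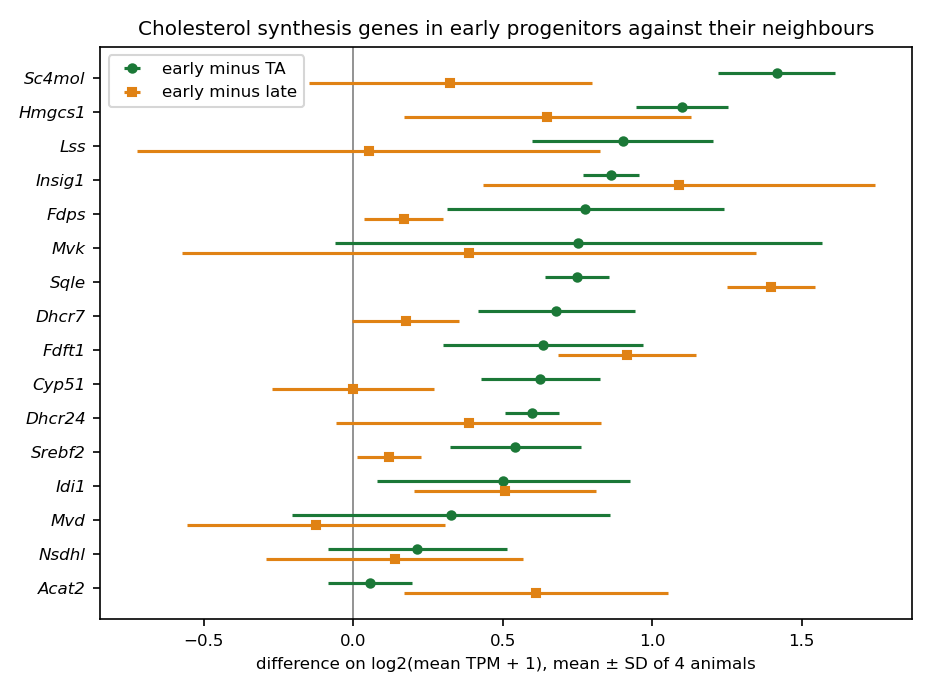
Differences of early progenitors from TA cells and from late progenitors for 16 of the 18 cholesterol synthesis genes on the log2(mean TPM + 1) scale, as mean and SD over 4 animals. All 16 means drawn are above TA and 14 are also above late, and the bars of several genes against late cross 0.

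Promoters of Hmgcs1, Cdkn2d and Cdc20 are shown as examples of the sterol, inhibitor and mitosis genes described here. They do not represent the other genes of their lists. Motifs were searched on both strands in the 250 bases before each start, and no matches overlap in the sequences printed. The sterol regulatory element was searched as TCACNCCAC and the CCAAT box as CCAAT. Hmgcs1 lies on the plus strand (chr13:119690101-119690350), and its capitals mark 1 sterol regulatory element at −137 and CCAAT boxes at −237, −176 and −45. Cdkn2d lies on the minus strand (chr9:21291210-21291459), with a CCAAT box at −220. Cdc20 lies on the minus strand (chr4:118437344-118437593), with CCAAT boxes at −53 and −8 and a cell cycle homology region at −18.
Hmgcs1: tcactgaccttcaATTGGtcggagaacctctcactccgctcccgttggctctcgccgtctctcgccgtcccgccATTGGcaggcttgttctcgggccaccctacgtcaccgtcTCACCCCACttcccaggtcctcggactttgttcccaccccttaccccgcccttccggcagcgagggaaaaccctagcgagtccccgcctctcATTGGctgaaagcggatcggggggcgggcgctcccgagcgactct
Cdkn2d: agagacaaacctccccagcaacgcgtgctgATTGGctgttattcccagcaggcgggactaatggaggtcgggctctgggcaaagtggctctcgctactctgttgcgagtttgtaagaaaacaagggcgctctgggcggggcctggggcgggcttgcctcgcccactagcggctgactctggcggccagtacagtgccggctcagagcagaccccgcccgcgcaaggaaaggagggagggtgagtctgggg
Cdc20: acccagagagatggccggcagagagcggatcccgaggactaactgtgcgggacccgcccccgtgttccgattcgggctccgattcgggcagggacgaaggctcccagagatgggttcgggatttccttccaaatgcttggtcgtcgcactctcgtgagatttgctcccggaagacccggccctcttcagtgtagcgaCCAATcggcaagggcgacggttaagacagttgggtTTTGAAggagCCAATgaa

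Promoters matched for 12 of the 18 cholesterol genes, and 11 of the 12 held a CCAAT box (91.7%). Among mitosis genes 26 of 30 matched and 23 held one (88.5%), while over all 27025 genes the share was 37.5%. The other lists searched were also above that share. They stood at 61.9% for DNA replication, 61.5% for brush border hydrolases, 46.2% for crypt genes and 42.9% for lipid uptake. The sterol regulatory element was in 1 of the 12 cholesterol promoters, that of Hmgcs1 printed above, against 1.22% of all genes. The promoter of Insig1 held a CCAAT box at −216 and no sterol regulatory element, and those of Rbp2 and Birc5 held no match to any motif searched. The cell cycle homology region was in 9 of the 26 mitosis promoters (34.6%), against 18.3% of all genes. A match describes letters in this window and not a site in use.

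The early progenitor was then placed on a line from TA (0) to late (1) for each gene that differed by at least 2 log2 units between those stages in every animal. Genes that were lower in late progenitors, 3.12% of the 6608, had a median position of 0.154 (quartiles 0.0110 and 0.279), and 67.5% of them lay below 0.25. Genes that were higher in late progenitors, 1.73% of the 6608, had a median of 0.613 (quartiles 0.532 and 0.684), and 92.1% of them lay between 0.25 and 0.75. The medians of the 4 animals ranged from 0.126 to 0.174 for the first set and from 0.590 to 0.647 for the second. On linear TPM the medians of the same genes were close, at 0.334 (quartiles 0.00255 and 0.540) for the first set and 0.359 (quartiles 0.272 and 0.427) for the second, and the first set was the more widely spread.

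**Figure D3:**
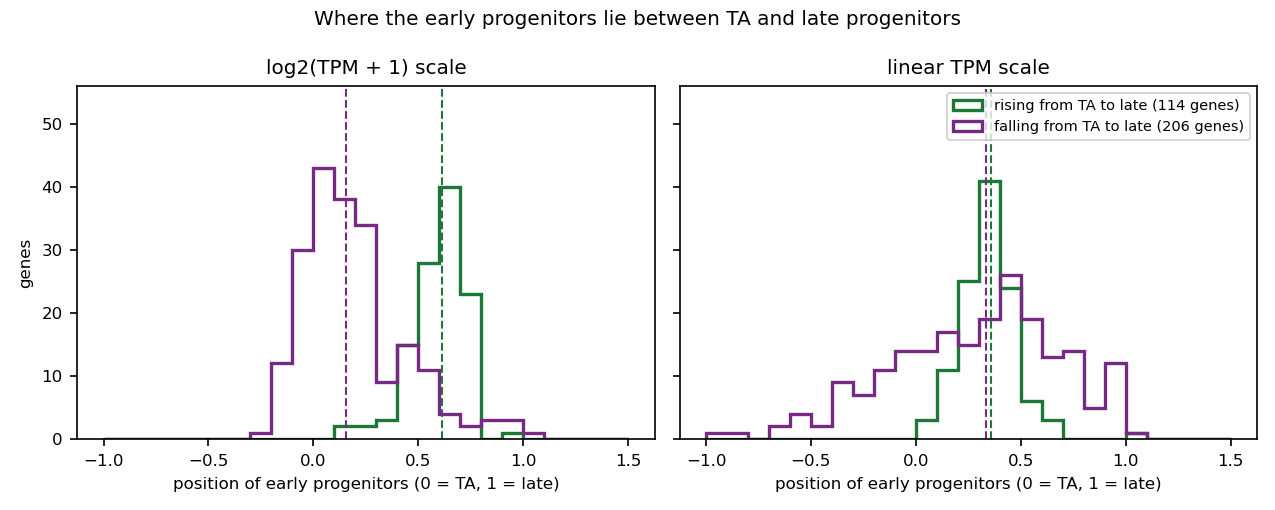
Number of genes by position of the early progenitor between TA (0) and late (1), on the log2 scale and on linear TPM, for genes lower and genes higher in late progenitors, with dashed lines at the medians. The medians are 0.154 and 0.613 on the log2 scale and 0.334 and 0.359 on linear TPM.

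Of the 130 genes above TA, 32 (24.6%) were also among the 62 below late (51.6% of that list), and they include Cdkn2b, Alpi, Sis, Enpep, Krt20, Rbp2, Fabp1, Mep1b and Mogat2. Of the 60 genes below TA, 11 (18.3%) were also among the 300 above late (3.67%), with the Wnt target Axin2 and the carrier Slc12a2 among them. Cdkn2d was the 1 gene above both by 1 log2 unit, and 0 genes were below both.

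Cells within the type spanned a wide range of cell-cycle scores. A score was the mean of log2(TPM + 1) over a list in 1 cell. The mitosis score of early progenitors had a median of 6.40 with an SD of 2.24 over cells, and ranged from 0.515 to 7.96. Its medians were 4.98 in TA cells and 1.06 in late progenitors. The replication score had medians of 5.74, 4.22 and 1.03 from TA to late, with an SD of 1.70 among early progenitors. The absorptive score, over 68 genes of the brush border, keratins, transporters and lipid uptake, had medians of 2.92, 3.79 and 5.18, with an SD of 0.72 among early progenitors.

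**Figure D4:**
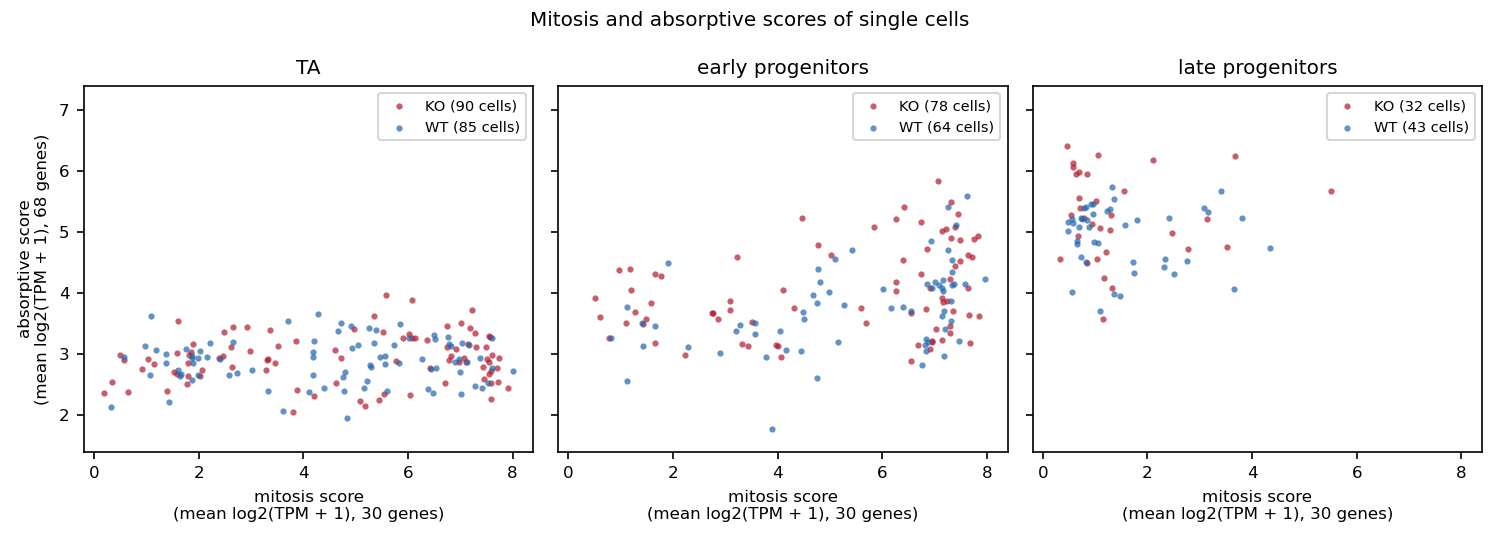
Mitosis score against absorptive score of each cell, as mean log2(TPM + 1), in TA cells, early progenitors and late progenitors, with KO in red and WT in blue. Early progenitors with a high mitosis score, around the median of 6.40, cover the range of absorptive scores between the medians of TA (2.92) and late (5.18).

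Across early progenitors the absorptive and mitosis scores had Pearson r of 0.47 in run 1 (66 cells) and 0.19 in run 2 (76 cells). The replication and mitosis scores were nearly unrelated, with r of 0.06 and −0.04. The absorptive score went against the crypt score, with r of −0.33 and −0.41. The mitosis score went with the cholesterol score, with r of 0.57 and 0.53. Scores of 1 cell share its library, and each of the 5 scores was higher in cells with more genes above 0, with r of 0.56 and 0.40 for mitosis, 0.40 and 0.35 for absorptive, 0.47 and 0.23 for replication, 0.32 and 0.35 for crypt and 0.40 and 0.27 for cholesterol genes, and the part of this in the correlations was not tested. Differences between the 8 sets of an animal and a run held 9.25% of the variance of the mitosis score and 10.8% of that of the absorptive score, but 64.5% for respiratory chain genes and 59.3% for ribosomal protein genes.

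Single genes differed widely in how much they varied between cells. Among 2629 genes with at least 50 TPM, the median SD of log2(TPM + 1) over cells, within an animal and run, was 1.79. Reg3b, a bactericidal lectin, had an SD of 5.01, with 50.7% of cells above 0 and a highest cell of 62073 TPM. Olfm4 followed at 4.21, Reg3g at 4.05, the alcohol dehydrogenase Adh1 at 3.91 and Fabp1 at 3.85. The others of the 12 most variable were Defa24, Atp6v0c-ps2, Ifitm3, Atp6v0c, Adh6a, Aurkb and Krt20, and the reads of Atp6v0c and its pseudogene may be split between the pair. Aurkb, a kinase of chromosome segregation, had an SD of 3.55 and an r with the mitosis score of 0.79 in run 1 and 0.82 in run 2. Defa24, a Paneth cell defensin, had an SD of 3.76, a median of 2.43 TPM and a highest cell of 70664 TPM.

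The genotypes were then compared, beginning with the deleted gene. Atg16l2 had TPM above 0 in 0 of 78 KO early progenitors, which allows a share of up to 3.85%, and in 2 of 64 WT early progenitors, both from WT M1. It was too rare here to check the label in this cell type. Over all 9 types it was above 0 in 0 KO cells, which allows up to 0.877%, and in 38 WT cells (11.3%). Atg16l1 was at 27.7 and 21.1 TPM in KO and 18.4 and 18.9 TPM in WT early progenitors, with a difference of 0.36 log2 units (SE 0.23, n = 2 each, limma adjusted p = 0.877 in the fit without a filter). Early progenitors made up 24.4% and 21.2% of the cells of KO animals and 18.5% and 19.8% of those of WT animals, a difference of 3.69 percentage points that was 5.51 in run 1 and 1.81 in run 2. In run 2 the shares were 23.5% in both KO animals and 20.9% and 22.5% in WT animals. The exact two-sided permutation test of the shares over 4 animals gave p = 0.333, the smallest it can give, and 0.667 after adjustment over 4 measures.

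Progress along the lineage was set side by side in the genotypes. The mean absorptive score was 4.004 and 4.09 in KO animals and 3.70 and 3.80 in WT animals, which did not overlap (difference 0.30, exact permutation p = 0.333). This gap was in run 1, with 4.21 and 4.31 in KO and 3.48 and 3.70 in WT animals (difference 0.67). In run 2 the animals overlapped, with 3.78 and 3.91 in KO and 3.86 and 3.88 in WT animals (difference −0.02). Without the run 1 cells of KO M2 the difference was 0.21 and the animals did not overlap. The mean mitosis score was 5.87 and 4.41 in KO and 5.12 and 5.74 in WT animals, and the replication score 4.33 and 4.14 in KO and 4.48 and 3.78 in WT animals, with overlap in both (exact permutation p = 1 each). Both of these differences were above 0 in run 1, at 0.39 for mitosis and 0.77 for replication, and below 0 in run 2, at −0.87 and −0.51.

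No gene passed between KO and WT early progenitors in limma at an adjusted p under 0.05, with 0 of 6565 genes called higher (0%) and 0 called lower (0%). At an unadjusted p under 0.05 there were 5.51% of the genes, and the smallest adjusted p was 0.737. Both KO animals lay above both WT animals at 1492 genes (22.7%) and below them at 885 genes (13.5%), and the median difference over all genes was 0.07 log2 units. The runs were unlike each other, since the differences of run 1 and run 2 had r = −0.03 across the 6565 genes and the same sign at 48.0% of them. The genes named next were ranked by unadjusted p among those that lay on the same side in both runs and in both animals, and each missed the threshold. Leaving out 1 animal at a time, with the lone animal assumed to vary like the others, called 1 gene higher without KO M1 (Rn45s), 5 without KO M2 (among them Defa20, Defa21, Gm21002 and Gm21498, where the Paneth markers of KO M1 sum to 6124 TPM), 4 without WT M1 and 1 without WT M2, and 2 lower without KO M1 (Hist1h2ao and Rpl34-ps1).

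Absorptive markers were among those higher in KO early progenitors. Rbp2 was at 215.5 and 199.1 TPM in KO and 116.3 and 104.7 TPM in WT early progenitors, with a difference of 0.90 log2 units (SE 0.18, n = 2 each, limma adjusted p = 0.818), and of 0.79 in run 1 and 1.08 in run 2. In each run alone both KO values were above both WT values, at 265.7 and 252.8 TPM in KO against 134.1 and 166.5 TPM in WT in run 1, and at 160 and 156.1 TPM in KO against 103.4 and 53.2 TPM in WT in run 2. Fabp1 was at 361.8 and 226.8 TPM in KO and 120 and 147.9 TPM in WT early progenitors, with a difference of 1.10 (SE 0.25, adjusted p = 0.818). The Rbp2 difference in early progenitors minus that in late progenitors was −0.09 log2 units (limma adjusted p = 0.947) and minus that in TA cells 0.59 (adjusted p = 0.999).

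Phgdh, the first enzyme of serine synthesis, was at 29.7 and 31.8 TPM in KO and 6.61 and 8.52 TPM in WT early progenitors, a difference of 1.90 (SE 0.31, limma adjusted p = 0.737). Phgdh was above 0 in 28.2% of early progenitors, so few cells carry these values. Zfp935, Gabpb1, Tmem42, Tti2 and Wee1 had differences between 1.28 and 1.54 log2 units.

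Among genes lower in KO early progenitors, Mt2, a metallothionein that binds zinc, was at 41.6 and 40.1 TPM in KO and 91.8 and 114.5 TPM in WT early progenitors, a difference of −1.31 (SE 0.22, limma adjusted p = 0.737), but of −2.46 in run 1 and −0.43 in run 2, where the animals overlapped. Ndufa3, a subunit of respiratory complex I, was at 353.6 and 289.97 TPM in KO and 515 and 554 TPM in WT early progenitors, a difference of −0.74 (SE 0.17), but of −1.37 in run 1 and −0.04 in run 2. Nedd8, a ubiquitin-like modifier, was at 318.7 and 296.1 TPM in KO and 504 and 449 TPM in WT early progenitors, a difference of −0.63 (SE 0.16), with −0.84 in run 1 and −0.44 in run 2. That both KO animals were below both WT animals for all 3 genes over both runs together was required by the rule that named them. Each difference was smaller in run 2. Rn4.5s, Tmem223, Nme4, Zswim7, Atp5k, Guca2b and Uprt had differences between −0.67 and −1.56.

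**Figure D5:**
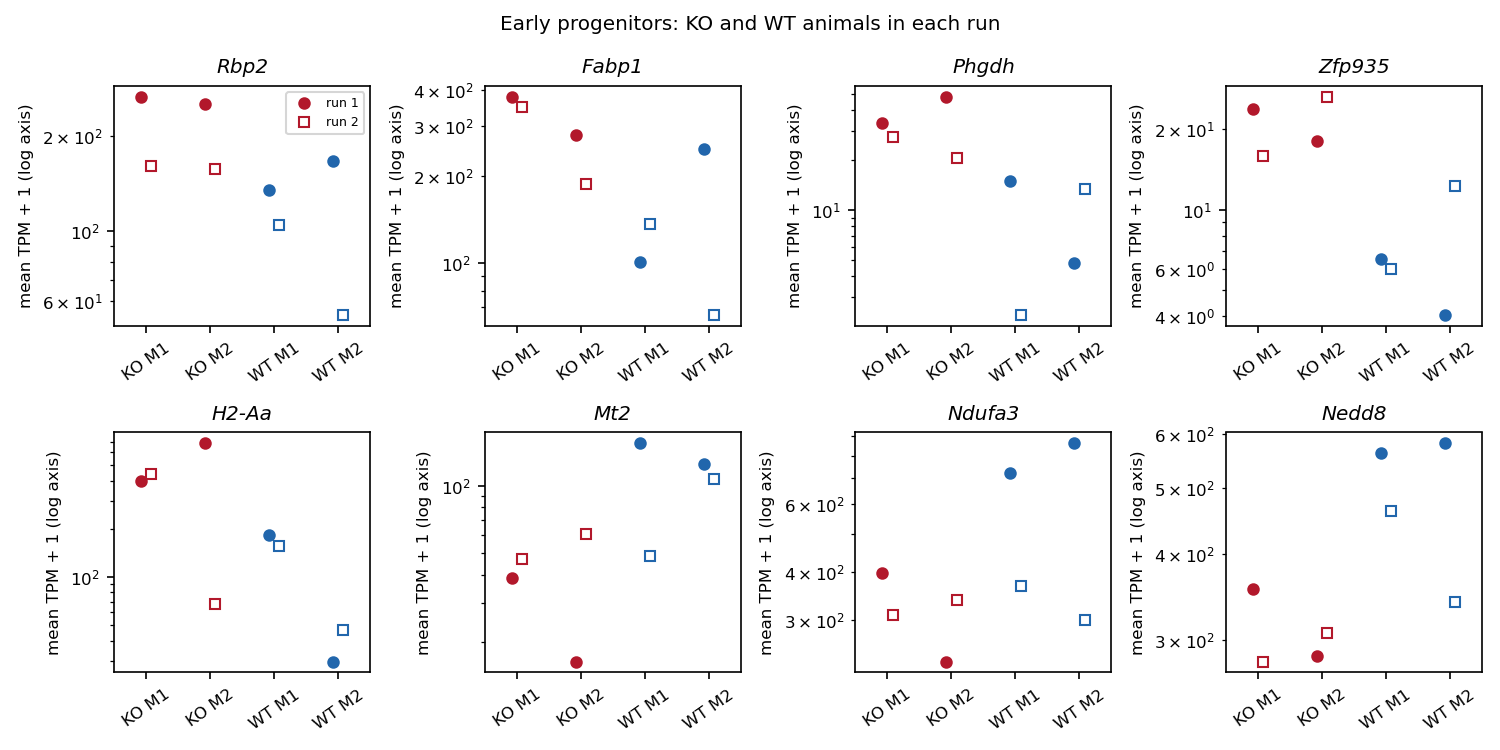
Mean TPM (log axis) of 8 genes in early progenitors by animal, KO left of WT, with filled circles for run 1 and open squares for run 2. Rbp2 lies higher in KO in both runs, H2-Aa of KO M2 is at 682 TPM in run 1 and 67.1 TPM in run 2, and Mt2 and Ndufa3 lie apart between genotypes in run 1 but overlap in run 2.

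Most genes of MHC class II, which presents peptides to helper T cells, were higher in KO animals, though none passed the test. H2-Aa was at 418 and 340 TPM in KO and 166.95 and 38.04 TPM in WT early progenitors, a difference of 2.22 log2 units (SE 0.55, n = 2 each, limma adjusted p = 0.820). Cd74, the invariant chain, was at 938 and 943 TPM in KO and 586 and 204.3 TPM in WT early progenitors. Of 7 kept class II genes (8 listed), both KO animals were above both WT animals for 6, against 22.7% of all genes, and the median difference was 1.36 log2 units, against 0.07 over all genes. Without WT M1 the limma fit called 4 genes, H2-Aa at 3.28 log2 units (adjusted p = 0.000671), Cd74, H2-Eb1 and the class I gene H2-Q7, while over all alternatives the adjusted p of H2-Aa reached 0.998. The median was 1.82 in run 1, 0.44 in run 2 and 0.42 without the run 1 cells of KO M2. In run 2 H2-Aa was at 438 and 67.1 TPM in KO and 155.5 and 45.9 TPM in WT early progenitors, so the animals overlapped. Of 11 myeloid markers 6, among them Csf1r, Itgax and Tyrobp, were at 0, and the list summed to 22.4 and 38.9 TPM in KO and 28.1 and 19.2 TPM in WT early progenitors.

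Absorptive lists were compared in the same way. Of 9 kept brush border hydrolases, 6 had both KO animals above both WT animals and 0 below, against 22.7% of all genes above and 13.5% below, with a median of 0.31 log2 units, which was 0.89 in run 1, −0.03 in run 2 and 0.16 without the run 1 cells of KO M2. Of 17 genes of lipid uptake, 10 lay above and 1 below, beside the same 22.7% and 13.5%, with a median of 0.31 (0.48 in run 1 and 0.10 in run 2). Of 10 kept genes of the proximal small intestine, 6 lay above and 0 below, with a median of 0.60 (0.77 and 0.46). Of 6 kept genes of the distal small intestine, 1 lay above and 0 below, with a median of 0.11, and the shares over all genes are again 22.7% and 13.5% for these lists. The segment sampled is not given in the sources used here, so a difference of genotype and one of gut position cannot be told apart.

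Ribosomal and respiratory genes lay lower in KO animals in run 1. Of 50 cytosolic ribosomal protein genes, 31 were lower in both KO animals than in either WT animal, with a median of −0.22 log2 units, and of 42 respiratory chain genes 24 were, with a median of −0.27, against 13.5% of all genes. The medians in run 2 were on the other side of 0, at 0.15 and 0.0067, and without the run 1 cells of KO M2 the ribosomal median was −0.07. Rn45s stood apart in these same cells, and its part in the result was not tested. The Paneth markers had a median of 1.96 over 8 kept genes, with 0 of 8 above in both KO animals, and their summed level was 6124 TPM in KO M1 and 222.3 TPM in KO M2, against 759 TPM in WT M1 and 155.9 TPM in WT M2.

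Autophagy genes lay on both sides. Of 22 kept core autophagy genes (38 listed), 4 had both KO animals above and 3 both below, near the 22.7% and 13.5% of all genes, with a median of 0.05 log2 units. Of 20 kept lysosomal genes, 5 lay above and 2 below, and of 19 kept genes of the unfolded protein response 5 lay above and 1 below, so the shares above were near the 22.7% of all genes. The mitosis, replication and cholesterol lists had medians of −0.04, 0.01 and 0.10, each above 0 in run 1 and below 0 in run 2.

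Whether the genotype acted differently in early progenitors than in their neighbours was tested as an interaction in limma over the 3 types, with the animal as a block. In the contrast with TA, 0 of 6608 genes were called (0%), with 1.54% at an unadjusted p under 0.05 and a smallest adjusted p of 0.999. In the contrast with late progenitors, 0 genes were called (0%), with 7.16% at an unadjusted p under 0.05 and a smallest adjusted p of 0.585. Without KO M2 the counts were 5 (Defa20, Gm21002, Defa21, Krt20 and Defa22) against TA and 39 against late, and without KO M1 the count against late was 18.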

How the data were processed

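Single intestinal epithelial cells of Atg16l2-/- and WT mice were profiled by SMART-Seq2, per the labels' protocols, which also name a 10X Genomics kit. The authors deposited TPM values for 23420 genes and 677 cells, made with Bowtie, TopHat and RSEM per the submitters' processing notes. Versions and the genome build are not given in the sources used here. TPM sums ran from 999999 to 1000001, so depth is unknown. No cell was removed, no doublet caller was run, and cell types were kept as deposited.

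Mean TPM per animal and type was transformed with a pseudocount of 1. KO and WT were compared with limma 3.58.1 (eBayes with trend, two-sided, Benjamini-Hochberg over all kept genes, 0.05) in R 4.3.3, after a filter of at least 10 TPM on average and above 0 in at least 10% of cells. Single values were compared with exact permutation tests in scipy 1.17.1. Tables were made with Python 3.11.15 and pandas 2.3.3, and the scripts were tested on simulated data. P-values measure the spread between 2 codes read as animals for each genotype. The same replicate number in KO and WT did not pair animals, as the labels give no such link and the deviations had a correlation of 0.0174.

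The members, gene lists and rules were chosen with earlier results of these data known. Genes named for genotype were Atg16l2, Atg16l1 and up to 10 in each direction by unadjusted p, with both KO animals beyond both WT animals and the same sign in both runs. Genes named between types were up to 12 for each direction and neighbour by the smallest difference over animals, and up to 12 most variable genes were named. Symbols starting with Gm, Rps, Rpl, Mir or Hist or ending in Rik were not ranked. Lists gave up to 4 members with the highest level, and further members were named after their values were seen. Some genes that these rules name are not reported here. Some listed symbols had no entry under that name in the table (Muc3, Sh2d6, Trac, Trbc2, Ighm, Igkc, Igha and Hbb-bt).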

Additional observations from a re-analysis of the deposited data

Results flagged for a closer look

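Of 60 groups of 4 animals examined, 1 held an animal far from the others, where chance gives about 1 in 20. Ugt2b5, a glucuronosyltransferase of detoxification, was −1.66 log2 units in early relative to late progenitors of WT M1, while the other animals lay between −2.42 and −2.31. The gap took 0.856 of the range of the 4 animals.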

How the results depend on the processing

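Shares of kept genes past the rule between types moved with averaging and with low genes. Whether a share had moved was judged on the count of genes behind it. With a pseudocount of 10 they were 1.18% above TA, 0.545% below TA, 2.86% above late and 0.560% below late. At a mean of at least 50 TPM they were 3.18%, 0.620%, 3.64% and 1.16% (82, 16, 94 and 30 genes), with 2 genes above both, 8 cholesterol genes above both and 17 mitosis genes above late. With the mean of log2(TPM + 1) over cells, 3.09% were above TA, 1.59% below TA, 1.69% below late and 10 genes above both. With no filter 0.787% were below TA, and run 2 alone gave 0.454% below late. The median position of genes lower in late progenitors was 0.236 with a pseudocount of 10, 0.206 with no filter, 0.251 with the mean of log2 values, 0.186 in run 1 and 0.334 on linear TPM, and that of genes higher in late progenitors was 0.640 at 50 TPM, 0.564 with the mean of log2 values and 0.359 on linear TPM.

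Leaving out each animal gave 1 to 5 genes called higher in KO, 0 to 2 lower, 0 to 5 for the contrast with TA and 0 to 39 for that with late, where run 1 alone gave 1 gene (Hist1h2ao) and leaving out the run 1 cells of KO M2 gave 1 (Rps27). It gave 2.22% to 2.39% of genes above TA, 1.04% to 1.17% below TA, 5.24% to 5.58% above late, 1.18% to 1.30% below late, 5 to 26 genes above both, 15 to 17 cholesterol genes, 28 to 29 mitosis genes, positions of 0.147 to 0.180 and 0.606 to 0.626, and a difference in share of 2.07 to 5.31 points. Counts of genes past a rule in every animal can only stay or rise when 1 animal is left out, so their rise was fixed by the rule. The KO minus WT medians turned sign in run 2 for ribosomal (0.15), respiratory (0.0067), brush border (−0.0268) and cholesterol genes (−0.18, and −0.0061 without the run 1 cells of KO M2). Mitosis genes turned to 0.39 in run 1 and ran from −0.33 to 0.33 over the animals left out, with 0.07 without WT M2. H2-Aa passed without WT M1, at 3.28. Mean scores turned sign for absorptive (−0.0249 in run 2), replication (−0.512 in run 2) and mitosis genes (0.392 in run 1), and over the animals left out ran from 0.246 to 0.344, from −0.242 to 0.455 and from −1.018 to 0.444. The cause of the other changes was not tested.

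With the replicate block 0 genes were called higher and 0 lower, as in the fit without the pairing, and likewise over the 8 sets of animal and run and without a trend. Rescaling without Rn45s, leaving out cells with over 1% Paneth markers, the linear position, the settings for mean scores and the 50 TPM limit for types were chosen after seeing the data. Quantile normalization was not run for the counts between types. With no depth in the table, values of 0 cannot be told from missed transcripts.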
